A study of Mus musculus with 4 samples.

Results

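The genes described here carry the cyclic AMP, protein kinase A and calcium-calcineurin signals that sperm use for motility and fertilization. They were taken as a fixed list of 10 symbols, Adcy10, Slc9a10, Prkaca, Prkacb, Prkar1a, Prkar2a, Ppp3cc, Ppp3r2, Ppp1cc and Camk4, out of 22552 symbols in the expression tables. All 10 were present, with Slc9a10 under that older name of Slc9c1. RNA had been sequenced from haploid cells that were stained with Hoechst dye and sorted from whole testes of male mice at 23 days after birth, when, per the design text, the most advanced haploid cells are step 3 round spermatids. The 4 libraries comprised 2 from wild-type mice and 2 from Sox30 knockout mice, which lack a SOX family transcription factor; the knockout is labelled only as such, so the deleted part of the gene is not given. The background is labelled DBA/C57/ICR and DBA/C59/ICR for the wild-type libraries and DBA/C58/ICR and DBA/C60/ICR for the knockout libraries. The number after C differs in each label, so whether these name different strains is not certain, and the labels were not used further. No treatment is named. The comparison asks how each gene's level differs between the genotypes.

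In sperm, bicarbonate and calcium activate a soluble adenylyl cyclase, the cyclic AMP it makes releases the catalytic subunits of protein kinase A (PKA) from their regulatory subunits, and the kinase then drives flagellar beating and capacitation. Anchoring proteins hold the type II regulatory subunits on the fibrous sheath of the tail. Calcineurin, a calcium-dependent phosphatase made of a catalytic A and a regulatory B subunit, exists in a germ-cell form that is needed for a flexible sperm midpiece.

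Without Sox30 these genes divided, broadly in step with their wild-type level. Adcy10, Prkar2a and Camk4 were lower in the knockout, whereas Ppp3r2, Ppp3cc, Prkar1a and Ppp1cc stayed at 46.7 FPKM or more in every library. Slc9a10 and Prkaca lay between, lower in the knockout without overlap but short of the threshold used below. Ppp3cc was also lower without overlap, at 168 and 77.2 FPKM against 180 and 195 FPKM in wild-type cells. FPKM counts fragments relative to transcript length and to the mapped fragments of the library, so levels of different genes can be compared. Changes are given as the knockout minus the wild-type mean of log2(FPKM + 1), a scale that understates the change of low genes, and were tested with limma over all 9124 genes whose mean FPKM was at least 1. Of the 10 genes, 9 were tested and Prkacb was not. At a limma adjusted p under 0.05, 3 were lower and 0 higher; of all genes tested, 13.4% were lower and 1.95% higher (1221 and 178 genes, and 1012 and 608 after quantile normalization). All 3 had a knockout mean under 1 FPKM and so entered the test only through their wild-type level; with every symbol above 0 tested, their adjusted p in limma lay between 0.0412 and 0.0419. Values did not overlap between the genotypes in the direction of a lower knockout for 6 of the 9 tested genes, against 38.6% of all genes tested, and in the other direction for 2, against 22.2%. In bulk RNA, fewer cells of a type and less RNA per cell cannot be told apart.

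**Figure D1:**
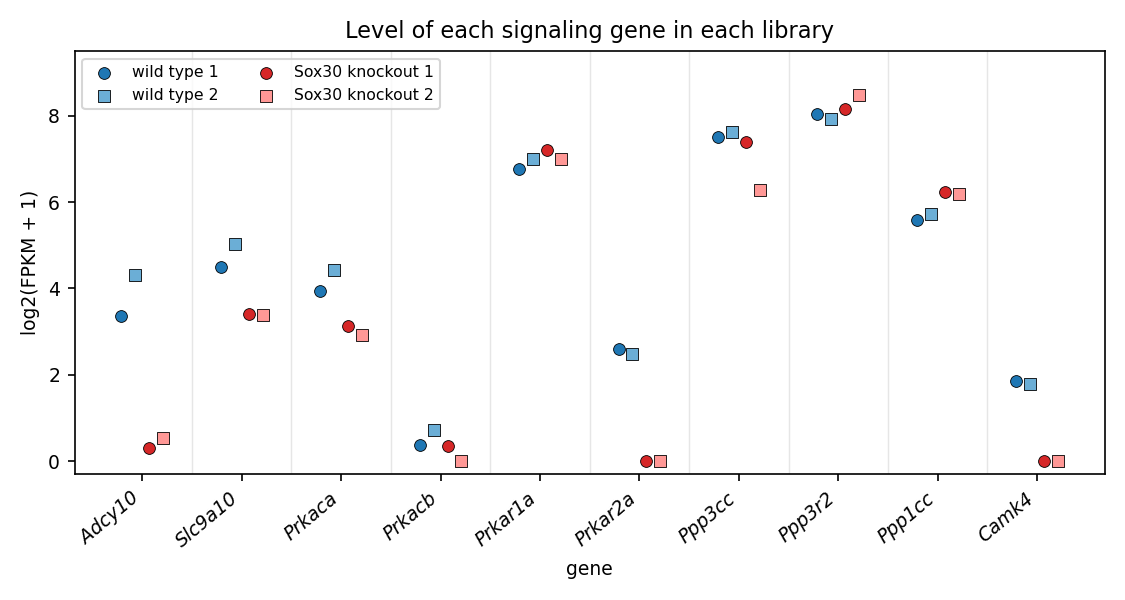
Level of each of the 10 genes, as log2(FPKM + 1), in the 4 libraries (blue, wild type; red, Sox30 knockout; circles, library 1; squares, library 2). Adcy10, Prkar2a and Camk4 lie near 0 in both knockout libraries, while Ppp3r2 is the highest of the genes in each library.

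Some facts of the whole data set touch these results. Sox30 itself measured 11.4 and 16.2 FPKM in wild-type cells, and 1.46 and 3.16 FPKM in knockout cells (log2 change -2.19, SE 0.43, adjusted p = 0.0219 in limma; 0.295 and 0.357 without wild-type library 1 or 2, and 0.0660 with no filter on low values). The read depth is unknown, because the tables hold no counts. Fewer symbols were above 0 in the knockout libraries. Ranked by level, symbols at 0 shared rank 16139 and 16638 in the wild type and rank 13224 and 11441 in the knockout. What part this has in single knockout values of 0 was not tested. The sorted cell type was checked with 8 spermatid markers, all of them present in each wild-type library. Their summed FPKM was 3322 and 2587 in the wild type and 416 and 279 in the knockout. Tnp1, for a transition protein, made up 1516 and 968 FPKM of the wild-type sums and was listed at 0 in knockout library 2. All 8 lay lower in the knockout without overlap, against 38.6% of all genes tested. In limma 6 of the 8 passed as lower, against 13.4% of all genes tested, and 2 did not. Of these 2, Acr was at 348 and 273 against 162 and 108 FPKM (adjusted p = 0.0602 in limma). Crem was at 209 and 167 against 166 and 114 FPKM (adjusted p = 0.394 in limma). Markers of other cells moved with genotype too. All 8 spermatocyte markers lay lower in the knockout without overlap, 7 of them tested, against 38.6% of all genes tested. In limma 1 of the 7 passed (Meiob, adjusted p = 0.0324), against 13.4% of all genes tested, and 6 did not. The 8 summed to 329 and 276 against 191 and 227 FPKM, most of it Sycp3 at 217 and 177 against 143 and 172 FPKM. Ccnb3 was at 0 in both knockout libraries. The 6 spermatogonial markers summed to 29.1 and 32.5 against 6.03 and 3.28 FPKM, with 4 of them (Zbtb16, Kit, Stra8 and Dmrt1) at 0 in both knockout libraries. For Leydig cells the 7 markers summed to 60.3 and 37.3 FPKM, most of it Insl3, against 0.0674 FPKM and practically 0. The 8 blood and macrophage markers, mostly hemoglobin, summed to 248 and 147 against 9.32 and 0.461 FPKM. The 6 Sertoli markers in the tables were low throughout, at 1.38 and 6.30 against 0.585 and 3.56 FPKM, with Amh at 0 in every library. What part these other cells have in the values below was not tested.

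**Figure D2:**
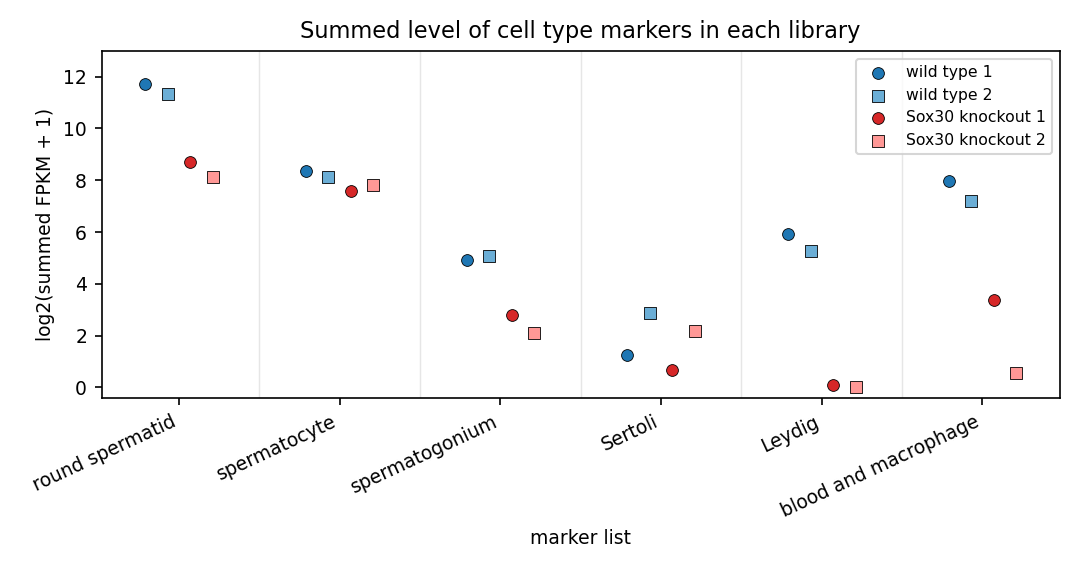
Summed FPKM of each marker list, as log2(sum + 1), in the 4 libraries (blue, wild type; red, Sox30 knockout). Leydig markers have sums of 60.3 and 37.3 FPKM in wild-type cells and about 0 in the knockout, while spermatocyte markers stay at 191 FPKM or more in each library.

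Adcy10 encodes the soluble adenylyl cyclase, the main source of cyclic AMP in sperm. It stood at 9.35 and 18.7 FPKM in wild-type cells and at 0.235 and 0.456 FPKM in knockout cells. Both knockout values lay far under both wild-type values, although the wild-type libraries themselves differed 2-fold. The gene fell by 3.41 on the log2 scale (SE 0.44, adjusted p = 0.00463 in limma), a 40.6-fold difference of the mean FPKM. The test was not passed when either wild-type library was left out (adjusted p = 0.0748 in limma without library 1 and 0.0992 without library 2), where the spread came from fewer samples. The membrane-bound cyclases Adcy1 to Adcy9 were all under 1 FPKM in every library, so Adcy10 made up 92.4% and 97.3% of adenylyl cyclase FPKM in wild-type cells and 26.7% and 43.8% in the knockout (a share computed after the values were seen).

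Slc9a10 encodes the sperm-specific sodium-proton exchanger, which carries a cyclic nucleotide-binding region and is needed for normal soluble cyclase activity. Its level was 21.5 and 31.5 FPKM in wild-type cells against 9.69 and 9.48 FPKM in knockout cells. The genotypes did not overlap, but the log2 change of -1.35 (SE 0.35) did not pass (adjusted p = 0.0524 in limma, 95% interval -2.20 to -0.50). It passed with a pseudocount of 5 (adjusted p = 0.0455 in limma), and after a correction for transcript GC content the change was -0.64 (0.290). With library number as a block it did not pass (adjusted p = 0.118 in limma), but with the numbers crossed between genotypes it did (0.0390). Quantile normalization also left it short of the threshold (0.109). The change was -1.37 and -1.34 without knockout library 1 or 2, and -1.62 and -1.09 without wild-type library 1 or 2.

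To show what lies upstream of the genes with contrasting behaviour, the RefSeq start-site windows (build GRCm38.p6, 250 bases before to 50 after the start) are printed for 4 of the 5 genes that have a single window. Adcy10 and Prkar2a were lower, Slc9a10 was lower without passing, and Ppp3r2 was the most abundant. Each is given 5′ to 3′ on the gene's strand, and capitals mark ACAAT, a core that SOX proteins recognise, or TGACG, the half-site of the cyclic AMP response element, on either strand.
Adcy10 (chr1:165484933-165485232, plus strand): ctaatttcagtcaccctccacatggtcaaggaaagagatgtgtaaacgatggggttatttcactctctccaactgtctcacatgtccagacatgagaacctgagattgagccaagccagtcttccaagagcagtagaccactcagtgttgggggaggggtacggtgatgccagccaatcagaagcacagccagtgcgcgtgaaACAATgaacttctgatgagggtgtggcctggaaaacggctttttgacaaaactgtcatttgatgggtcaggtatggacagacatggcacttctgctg
Slc9a10 (chr16:45535016-45535315, plus strand): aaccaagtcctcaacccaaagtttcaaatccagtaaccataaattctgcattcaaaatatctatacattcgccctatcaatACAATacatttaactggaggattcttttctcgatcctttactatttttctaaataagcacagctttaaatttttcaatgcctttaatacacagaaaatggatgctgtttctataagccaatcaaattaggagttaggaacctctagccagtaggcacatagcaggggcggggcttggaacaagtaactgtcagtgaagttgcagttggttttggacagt
Prkar2a (chr9:108691893-108692192, plus strand): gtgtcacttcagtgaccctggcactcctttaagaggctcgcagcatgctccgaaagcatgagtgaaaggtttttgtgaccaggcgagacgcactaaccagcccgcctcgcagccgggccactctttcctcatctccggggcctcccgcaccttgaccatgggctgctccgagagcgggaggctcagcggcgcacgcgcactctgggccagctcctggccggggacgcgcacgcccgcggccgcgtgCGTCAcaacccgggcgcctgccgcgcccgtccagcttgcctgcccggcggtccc
Ppp3r2 (chr4:49681934-49682233, minus strand): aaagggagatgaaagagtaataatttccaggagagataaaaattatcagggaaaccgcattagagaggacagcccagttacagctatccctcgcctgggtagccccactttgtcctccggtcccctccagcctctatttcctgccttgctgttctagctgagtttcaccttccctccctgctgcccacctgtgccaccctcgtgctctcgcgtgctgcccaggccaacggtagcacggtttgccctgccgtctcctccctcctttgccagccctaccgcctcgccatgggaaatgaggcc
ACAAT begins 47 bases before the start in Adcy10 and 169 bases before it in Slc9a10. Prkar2a holds the reverse complement of TGACG 4 bases before the start, and neither motif is in the Ppp3r2 window. Over all 32851 windows of this length 31.0% hold ACAAT and 20.8% hold TGACG on either strand, and 1.79% hold the full element TGACGTCA, which contains TGACG. The 8 genes matched to a window have 16 windows in all, of which 7 held ACAAT and 6 held TGACG. Windows of the same gene may overlap, so a site can count in more than 1 window. By gene, 5 of the 8 held ACAAT in any window and 4 held TGACG. Of the 5 genes with a single window, 2 held ACAAT and 1 held TGACG. Prkar1a, whose change did not pass, held ACAAT in windows 1, 2 and 4 of its 6, and it alone held the full element. These matches describe letters and not binding. Ppp3cc and Camk4 had no window.

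Among PKA subunits the catalytic gene Prkaca, whose product includes the form found in sperm, was at 14.3 and 20.4 FPKM in wild-type cells and at 7.73 and 6.61 FPKM in knockout cells. Both knockout values were below the wild-type ones, and the mean was 2.42-fold lower. The log2 change of -1.15 (SE 0.35) did not pass (adjusted p = 0.0881 in limma, 95% interval -2.02 to -0.28). It passed after the GC correction (adjusted p = 0.0412 in limma). It did not with median-ratio scaling (0.117), quantile normalization (0.215) or library number as a block (0.198). The change was -1.25 and -1.05 without knockout library 1 or 2, and -1.39 and -0.91 without wild-type library 1 or 2. Prkacb, for the second catalytic subunit, was under 1 FPKM in all libraries, at 0.309 and 0.645 against 0.285 and 0.0132 FPKM, and its level was too low for a comparison. Prkaca thus held between 96.4% and 99.8% of catalytic subunit FPKM in each library.

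The regulatory subunits differed from each other. Prkar2a, for the RIIα subunit that binds anchoring proteins of the tail, was at 5.07 and 4.60 FPKM in wild-type cells and was listed at 0 in both knockout libraries. Since a listed 0 can be a failed estimate, no fold is given. On the log2(FPKM + 1) scale Prkar2a fell by 2.54 (SE 0.32, adjusted p = 0.00404 in limma), a size set by the pseudocount: it was -5.62 with 0.1 and -0.98 with 5. Without wild-type library 2 it did not pass (adjusted p = 0.0653 in limma). Prkar1a, for the RIα subunit, was at 107 and 127 FPKM in wild-type cells and at 146 and 127 FPKM in knockout cells. The genotypes overlapped and the change of 0.22 did not pass (SE 0.28, adjusted p = 0.625 in limma, 95% interval -0.47 to 0.91). Prkar1a was the dominant regulatory transcript in both genotypes, with 94.0% and 94.3% of regulatory subunit FPKM in wild-type cells and 97.9% and 98.1% in the knockout. Catalytic FPKM amounted to 12.9% and 15.6% of regulatory FPKM in wild-type cells and to 5.37% and 5.12% in the knockout. These shares were computed after the values were seen and carry no test.

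The germ-cell calcineurin transcripts Ppp3r2 and Ppp3cc stayed at 77.2 FPKM or more in every library. Those of the related subunits Ppp3ca, Ppp3cb and Ppp3r1, given below with the ratios, were lower in the knockout without overlap. Ppp3r2, the regulatory B subunit of germ cells, was at 262 and 240 FPKM in wild-type cells and at 285 and 353 FPKM in knockout cells. Both knockout values were above the wild-type ones, but the change of 0.34 did not pass (SE 0.27, adjusted p = 0.442 in limma, 95% interval -0.33 to 1.01). Among all symbols it ranked 431 and 411 in wild-type cells, and 423 and 334 in knockout cells. Per GENCODE M21 the gene lies in an intron of Grin3a on the same strand, and Grin3a was at 0.103 FPKM in wild-type library 2 and at 0 in the others. Ppp3cc, the catalytic Aγ subunit of germ cells, was at 180 and 195 FPKM in wild-type cells and at 168 and 77.2 FPKM in knockout cells. Only knockout library 2 was far from the wild type. The change of -0.71 did not pass (SE 0.42, adjusted p = 0.295 in limma, 95% interval -1.74 to 0.32); it was -1.27 without knockout library 1 (0.00120) and -0.16 without knockout library 2 (0.781). An antisense gene in GENCODE M21 shares exon sequence with Ppp3cc, and without strand the reads of the pair cannot be told apart. Calcineurin A FPKM, summed over its 3 genes, came to 80.9% and 93.8% of B subunit FPKM in wild-type cells and to 65.3% and 25.05% in the knockout.

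Ppp1cc encodes the protein phosphatase 1γ catalytic subunit, whose splice form γ2 is the main phosphatase 1 of sperm and a brake on motility; the tables hold 1 value for both splice forms. It was at 46.7 and 52.1 FPKM in wild-type cells and at 74.0 and 72.1 FPKM in knockout cells. Both knockout values were higher, by 1.48-fold in the mean. The change of 0.56 did not pass (SE 0.28, adjusted p = 0.232 in limma, 95% interval -0.13 to 1.24).

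Camk4 encodes a calmodulin-dependent kinase that phosphorylates protamine in spermatids, and the same gene also gives rise to the testis protein calspermin. It was low in the wild type, at 2.62 and 2.43 FPKM, and was listed at 0 and at 0.00890 FPKM in knockout cells. It fell by 1.81 on the log2(FPKM + 1) scale (SE 0.30, adjusted p = 0.0119 in limma), with -4.65 at a pseudocount of 0.1 and -0.59 at 5. Without wild-type library 2 it did not pass (adjusted p = 0.0653 in limma). An antisense gene overlaps Camk4 exons. As with Prkar2a, its wild-type level was near that of some Leydig and spermatogonial markers that were also near 0 in the knockout. Examples are Cyp17a1 at 2.50 and 3.40 FPKM and Dmrt1 at 2.62 and 3.48 FPKM. Other markers of these lists lay elsewhere, such as Insl3 at 54.8 and 30.3 FPKM in wild-type cells. Uchl1 was at 17.8 and 21.7 FPKM there and stayed at 5.76 and 3.28 FPKM in the knockout. Of the 9124 genes tested, 1333 had a wild-type mean of at least 1 FPKM and a knockout mean under 1. Of these 1333, 779 passed as lower, out of 1221 lower genes in all. What part other cells have in the fall of Camk4 and Prkar2a was not tested.

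**Figure D3:**
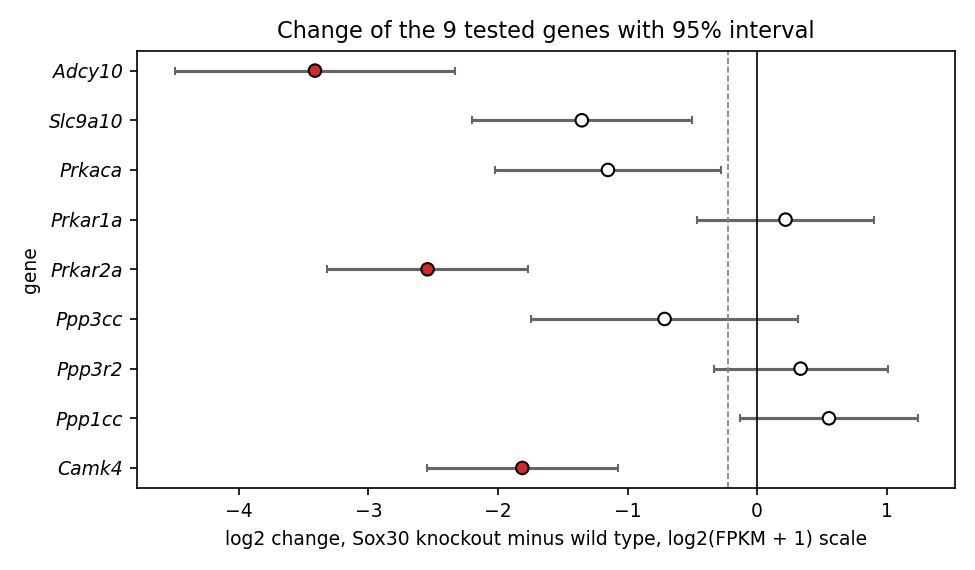
Log2 change of the 9 tested genes, Sox30 knockout minus wild type, on the log2(FPKM + 1) scale, with 95% intervals from the limma fit; red points passed at an adjusted p under 0.05, and the dashed line is the median of all genes tested, -0.23. Adcy10, Prkar2a and Camk4 pass, and the intervals of Prkar1a, Ppp3cc, Ppp3r2 and Ppp1cc include 0.

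By mean wild-type level the order was Ppp3r2, Ppp3cc, Prkar1a, Ppp1cc, Slc9a10, Prkaca, Adcy10, Prkar2a, Camk4 and Prkacb. Prkaca and Adcy10 overlapped across the wild-type libraries, and the other neighbours in that order did not. In the knockout, Prkar1a at 146 and 127 FPKM lay within the range of Ppp3cc at 168 and 77.2 FPKM, and Adcy10 dropped from the level of Prkaca to that of Prkacb. The 10 genes lie on 10 different chromosomes.

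Ratios of (FPKM + 1) of related subunits were taken within each library for 6 pairs. A shift common to a library nearly cancels where both genes are far above 1 FPKM, and only in part for lower genes. With 2 libraries per genotype an exact two-sided permutation test cannot go below p = 0.333, which 5 of the 6 pairs reached (0.4 after Benjamini-Hochberg adjustment over the 6). The log2 ratio of Ppp3r2 to its somatic relative Ppp3r1 was 6.02 and 5.89 in the wild type and 8.08 and 8.47 in the knockout. The difference of 2.32 is set by the pseudocount, as it was 4.99 with 0.1 and 1.01 with 5. Here Ppp3r1 was the gene that moved, from 3.06 and 3.06 FPKM to 0.0590 FPKM and 0 (log2 change -1.98, adjusted p = 0.00917 in limma). Ppp1cc to Ppp1ca was 1.23 and 1.37 against 2.19 and 3.27, with Ppp1ca at 19.4 and 19.6 FPKM against 15.5 and 6.59 FPKM. Prkar2a to Prkar1a went from -4.15 and -4.52 to -7.20 and -7.00. With Prkar2a at 0 in the knockout that difference of -2.76 also follows the pseudocount, at -5.85 with 0.1 and -1.19 with 5. Ppp3cc to Ppp3ca was 2.37 and 2.56 against 3.14 and 2.69, with Ppp3ca at 34.0 and 32.3 FPKM in wild-type cells and 18.1 and 11.1 FPKM in knockout cells (adjusted p = 0.0859 in limma). Ppp3cc to Ppp3cb, a gene under 1 FPKM throughout, overlapped between genotypes, at 6.67 and 6.75 against 7.14 and 6.03. Prkaca to Prkacb was 3.55 and 3.70 against 2.76 and 2.91, but with a pseudocount of 0.1 the difference of -0.79 became 0.16, as Prkacb is near 0.

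**Figure D4:**
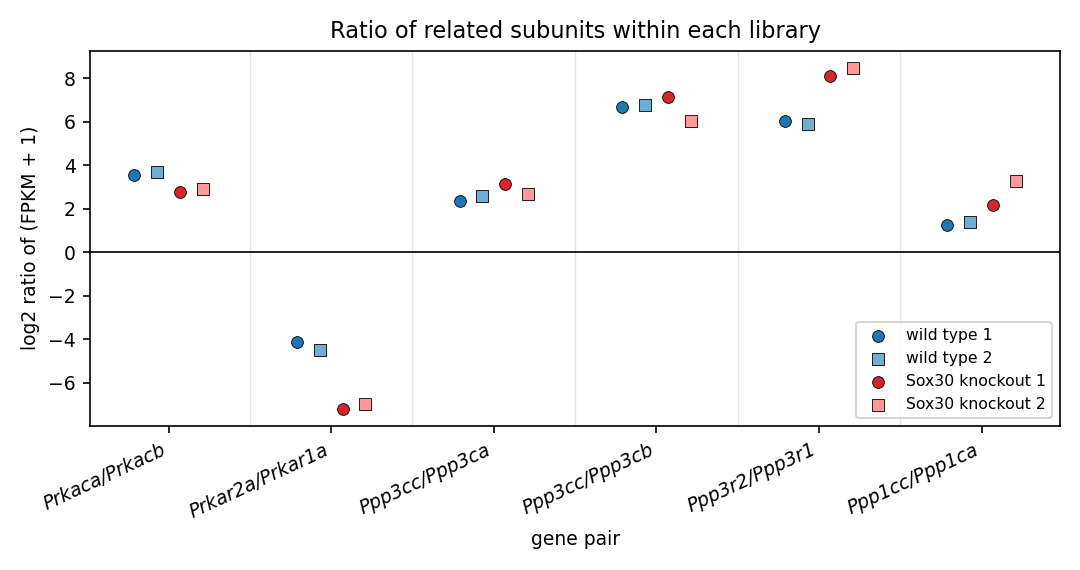
Log2 ratio of (FPKM + 1) of related subunits within each of the 4 libraries (blue, wild type; red, Sox30 knockout). The ratio of Ppp3r2 to Ppp3r1 is 6.02 and 5.89 in the wild type and 8.08 and 8.47 in the knockout, and that of Ppp3cc to Ppp3cb overlaps between genotypes.

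The other genes of the pathway were read from 7 lists with 110 genes in the tables, of which 54 were tested. Of these 13 fell (24.1%, against 13.4% of all genes tested), 0 rose (against 1.95%) and 41 did not pass, and the median log2 change was -0.55 against -0.23 over all genes tested. In 6 of the lists the count was 0 to 2 genes of 4 to 14 tested, counts too small to read against the 13.4%. Of the fallen genes, Pkib, Akap4, Akap1, Car2, Ppp3r1 and Gsk3b had a knockout mean under 1 FPKM. They thus entered the test only through their wild-type level. With no filter on low values 13 of 107 pathway genes fell, against 1134 of 17790 symbols. The counts move with the libraries, from 0 fallen genes without wild-type library 2 to 4 without wild-type library 1 (Pkib, Akap1, Car2 and Ppp3r1) and 21 without knockout library 1.

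Among anchors of PKA and proteins with the RII-type dimerization fold, 7 of 13 tested genes fell (Ropn1, Akap4, Cabyr, Akap1, Akap3, Akap14 and Akap10), or 53.8% against 13.4% of all genes tested, and 6 did not pass, with a median of -1.47. With no filter on low values 5 of 19 fell. Akap10 and Akap14 did not pass with no filter on low values (adjusted p = 0.0535 and 0.0916 in limma) or with a pseudocount of 0.1 (0.0505 and 0.0851), and Akap10 also not with either scaling, the GC correction or the replicate block (0.0539 to 0.104). Ropn1, a fibrous sheath protein with that fold, was at 1072 and 820 FPKM in wild-type cells and at 10.7 and 5.90 FPKM in knockout cells (log2 change -6.70, SE 0.37, adjusted p = 4.8e-04 in limma). Akap4, the main structural anchor of the fibrous sheath, went from 89.6 and 99.97 FPKM to 0.898 and 0.145 FPKM. Akap3, its partner in the sheath, went from 29.5 and 42.9 FPKM to 2.41 and 1.69 FPKM (adjusted p = 0.00222 in limma). Akap1, which anchors PKA at mitochondria, was at 8.01 and 16.8 FPKM against 0.0438 FPKM and 0. In contrast Ropn1l, a close relative of Ropn1, was among the most abundant transcripts in all libraries, at 3774 and 3279 FPKM in wild-type cells and 4332 and 4445 FPKM in knockout cells (adjusted p = 0.438 in limma). When either wild-type library was left out Ropn1, Akap4, Cabyr, Akap3, Akap10 and Akap14 did not pass, with limma adjusted p from 0.0764 to 0.379.

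In the list of cyclic AMP synthesis and breakdown, 2 of 9 tested genes fell and 7 did not pass, with a median of -0.91. Pde1a, a calmodulin-activated phosphodiesterase, fell from 150 and 123 FPKM to 8.91 and 4.15 FPKM (log2 change -4.26, SE 0.41, adjusted p = 0.00166 in limma). Pde4a, a cyclic AMP-specific phosphodiesterase, fell from 9.19 and 12.2 FPKM to 1.65 and 0.512 FPKM (adjusted p = 0.0130 in limma; 0.0558 with no filter on low values). Gnas, for the stimulatory G protein that acts on the membrane-bound cyclases, was at 21.7 and 26.3 against 25.9 and 23.1 FPKM. Among other PKA subunits, inhibitors and effectors, 1 of 4 tested genes fell. This was Pkib, a PKA inhibitor peptide, from 19.8 and 14.4 FPKM to 0.0101 and 0.0216 FPKM (log2 change -4.14, SE 0.36, adjusted p = 0.00124 in limma). Pkig, a second inhibitor, was at 314 and 261 against 194 and 175 FPKM (adjusted p = 0.176 in limma).

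Among sodium-proton exchangers and genes of bicarbonate supply, 1 of 4 tested genes fell, Car2, a carbonic anhydrase also known from red blood cells. It was at 12.8 and 6.03 FPKM in wild-type cells and at 0.0330 FPKM and 0 in the knockout (adjusted p = 0.00520 in limma), and the part of blood cells in its value was not tested. Of the 8 blood and macrophage markers, 4 were lower in the knockout without overlap. Among the 4 markers tested it was 2, against 38.6% of all genes tested. The same 2 of 4 passed as lower in limma, against 13.4% of all genes tested. These were the hemoglobin genes Hba-a1 and Hbb-b1. Hba-a1 was at 220 and 109 FPKM against 7.45 FPKM and practically 0. Hbb-b1 was at 21.2 and 22.2 FPKM against practically 0 in both. Lyz2, at 0.158 and 0.226 FPKM in wild-type cells, and Ptprc, at 0.0756 and 0.0363 FPKM, were 0 in the knockout and were not tested. The other 4 markers overlapped, among them Hba-a2, at 0.00370 and 16.0 against 0.00171 and 0.178 FPKM, and Cd68, detected only in knockout library 1 at 0.811 FPKM. In the list of calcineurin partners Ppp3r1 was the single fall among 6 tested genes. Spata33, which tethers sperm calcineurin to mitochondria, was at 3562 and 2738 FPKM in wild-type cells and 3998 and 6482 FPKM in knockout cells (adjusted p = 0.218 in limma). Of 14 tested PP1 genes 1 fell: Gsk3b, a kinase that acts on PP1 inhibitor 2, went from 22.8 and 17.8 FPKM to 1.45 and 0.328 FPKM (log2 change -3.55, SE 0.44, adjusted p = 0.00398 in limma). Ppp1r11, a PP1 inhibitor, was at 530 and 424 against 758 and 951 FPKM (adjusted p = 0.110 in limma). None of 4 tested calmodulin and calmodulin kinase genes passed in the limma test; at an unadjusted p under 0.05 the number was also 0. Of these, Calm3, for calmodulin, was at 601 and 501 against 760 and 1080 FPKM.

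**Figure D5:**
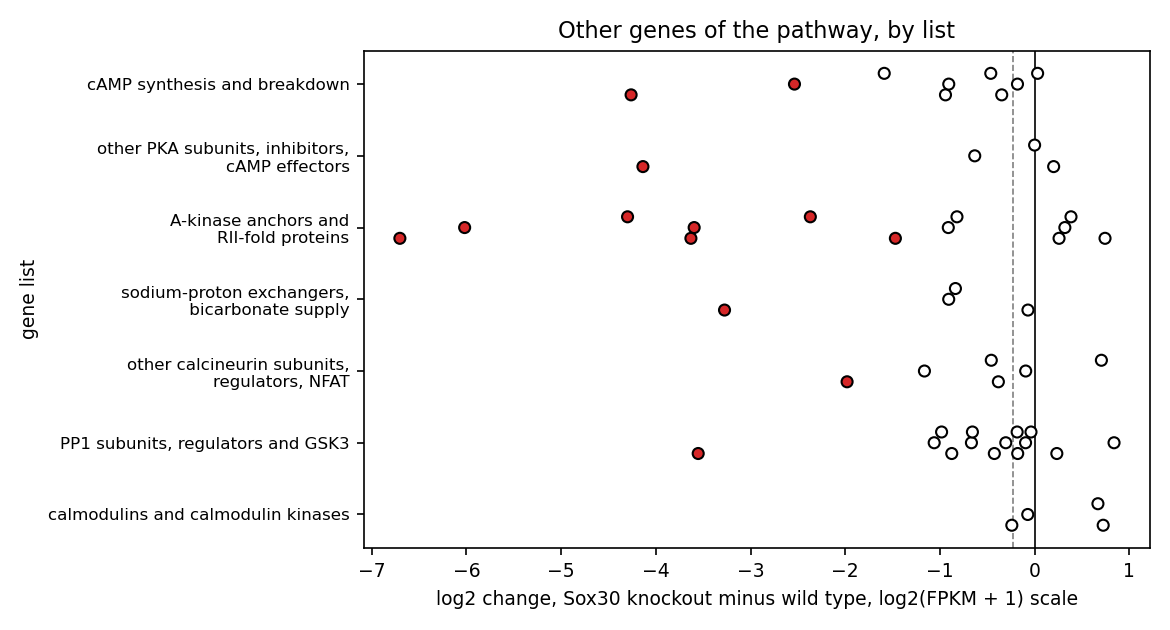
Log2 change of each tested gene in the 7 pathway lists, Sox30 knockout minus wild type, on the log2(FPKM + 1) scale; red points passed at a limma adjusted p under 0.05, and the dashed line is the median of all genes tested, -0.23. The 7 red points among A-kinase anchors and RII-fold proteins reach from -1.47 to -6.70.

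Genes with the pattern most like that of the largest fall and the largest rise among the 10 were found by the root mean square difference of log2(FPKM + 1) over the 4 libraries, as a description. For Adcy10 they were Coro2a (difference 0.19), Sox5 (0.31) and Akap1 (0.32). Coro2a, of the coronin family, was at 11.5 and 19.5 FPKM in wild-type cells and 0.446 and 0.548 FPKM in knockout cells, and so shared the higher value in wild-type library 2. For Ppp1cc, whose rise did not pass, they were Eif4e2 (0.12), Dmap1 (0.14) and Dtnbp1 (0.15). None of these passed either, which follows from their being picked by the same values.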

How the data were processed

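RNA-seq libraries were made with the NEBNext Ultra kit, per the labels' protocols, and what the authors deposited is FPKM. TopHat2 2.0.6, Cufflinks 2.0.2, Cuffdiff and build mm9 are named in the submitters' processing notes; their roles and strand settings were not given in the sources used here. Groups came from sample titles. As separate animals are not named, p-values reflect only how libraries of a genotype spread, which may be technical.

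Of 23021 entries, those sharing a symbol (259 symbols) were summed. log2(FPKM + 1) was fitted with genotype alone in limma 3.58.1 (R 4.3.3, moderated with a mean-variance trend, residual df 2, prior df 3.84), two-sided, Benjamini-Hochberg adjusted over 9124 genes, without rescaling. Alternatives were the pseudocount, filter, scaling, trend, repeated symbols, library number as block and each library left out; a lowess GC correction (GENCODE M21, span 0.3) and a crossed block were added after seeing the data. The 10 genes and the lists were chosen with earlier results of these data known. Named were all 10, up to 4 called genes per list, topped up to 2 by level, and related subunits, with 1 gene not reported here; Akap3, Akap10, Akap14, Ropn1l and Gnas were added after their values were seen. Counts were not used here, and precision is limited by 2 libraries per genotype.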

Additional observations from a re-analysis of the deposited data

How the results depend on the processing

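Over all recomputations of the single-gene changes, 416 kept direction and side of the threshold, 13 came to pass, 38 ceased to and 8 changed sign. The 3 signaling genes that fell became 1 at a mean FPKM of at least 5, where Prkar2a and Camk4 were not tested, and 0 to 6 with 1 library left out. With a library left out, its genotype's spread was taken from the other genotype. Over all genes 1221 fell and 178 rose, 0 to 3071 and 0 to 984 with 1 library left out, and 787 fell at a mean FPKM of at least 5. The number that rose was 113 with a pseudocount of 0.1, 62 with no filter, 273 with median-ratio scaling, 608 with quantile normalization and 323 with the GC correction. Quantile normalization made 62.5% of calls lower in place of 87.3% and moved the median of all genes from -0.23 to 0.17. Of pathway genes 0 to 21 fell and 0 to 2 rose with 1 library left out, and 1 rose with quantile normalization and 1 with the GC correction. Signs changed for Slc9a5 (0.12 with median-ratio scaling, 0.49 with quantile normalization, -0.1811 to 0.0395 with 1 library left out), Spata33 (-0.0018 with quantile normalization), Ropn1l (-0.46 with quantile normalization) and Gnas (-0.1035 to 0.1661 with 1 library left out, -0.25 with the GC correction). Each of these 4 had a main limma adjusted p above 0.05. The ratio of Ppp3cc to Ppp3cb changed sign with a pseudocount of 0.1 (0.90), median-ratio scaling (0.0278) and with 1 library left out (-0.673 to 0.4348), and that of Prkaca to Prkacb with a pseudocount of 0.1 (0.16). The cause of these shifts was not tested.

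Library numbers are shared between genotypes, but nothing says that they pair the libraries: deviations of same-numbered libraries from their group means correlated at -0.20 across genes. With the number as a replicate block, 1056 genes fell and 82 rose, and 3 of the 10 signaling genes fell. With the numbers crossed, 1416 fell and 390 rose, with 4 of the 10 lower and 1 pathway gene higher.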
